A study of Mus musculus with 7 samples.

Results

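The 10 genes described here mark lymphocytes, dendritic cells or both, and they were picked by name out of 27179 genes in a mouse expression table with their levels in its 7 libraries known, above all their high level in freshly sorted cells of adipose tissue. Cd3e belongs to T cells. Cd79a, Ms4a1, Blk, Fcer2a and Fcmr belong to B cells. Flt3 is a receptor of dendritic cells and their precursors, Fscn1 and Apol7c are known from activated dendritic cells, and Samsn1 is an adaptor of blood cells. The levels in fresh adipose, in fresh bowel and in adipose neurospheres are the values that chose the genes, so those contrasts are given as a description.

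All libraries came from mice carrying Wnt1-Cre and the R26R-tdTomato reporter, in which cells that once expressed Wnt1-Cre, the neural crest and its descendants, carry the red protein tdTomato. Each library was an equal pool of 3 mice aged 1 month, 2 female and 1 male, with RNA from about 50000 cells, and each group had 1 library, so no comparison has a replicate check and none has a p-value. Fresh adipose cells were tdTomato-positive cells sorted straight from digested posterior subcutaneous fat pads, and fresh bowel cells were tdTomato-positive cells sorted straight from the digested muscle layer of the small bowel with its myenteric plexus. Adipose neurospheres came from a mixed fat pad culture of 10 days, a sort for tdTomato and 10 further days of culture, and bowel M2 neurospheres followed the same course from bowel. Bowel M1 neurospheres were sorted first and then cultured for 10 days. The 2 bowel spheroid libraries were the tdTomato-positive and the tdTomato-negative cells of mixed bowel cultures at 10 days, and the tdTomato-negative library was the only one of the 7 not sorted for the reporter. All cultures were kept in a neural proliferation medium with 20 ng/mL each of bFGF and EGF, and no adipose counterpart of the M1 or the 10-day spheroid libraries was analysed here.

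The T cell receptor signals through the CD3 chains, and the B cell receptor through CD79A and CD79B, with Src family kinases at the start of both cascades. Dendritic cells take up antigen in tissues, and when activated they gain CCR7 and the actin bundler fascin and travel through lymph vessels to the draining lymph node, where they meet T and B cells. Adipose tissue normally holds leukocytes of many kinds, and the neural crest is known for peripheral glia and neurons.

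Library totals ran from 51885106 to 65301500 reads, so 1 read was worth 0.0153 to 0.0193 CPM, the read count scaled to a common library total. A count of 0 allows up to 3 reads, which is 0.0459 to 0.0578 CPM, and intervals and this floor cover counting error only, since PCR copies were not marked and could not be collapsed to molecules. Fresh adipose held markers of its labelled lineage, with Sox10 at 377 CPM, against 98.0 CPM in fresh bowel. It also held the leukocyte gene Ptprc (CD45) at 278 CPM, against 85.6 CPM in fresh bowel, 0.601 CPM in adipose neurospheres and 1.55 to 7.71 CPM in the 4 other cultures. The deposited values of both fresh libraries therefore contained reads of leukocyte genes although the cells were sorted for tdTomato. Ratios throughout are scaled by TMM (trimmed mean of M values), and by the size rule a gene was called higher or lower when it differed 4-fold or more with the counting interval wholly beyond 2-fold, among genes at 1 CPM or more in either library. In pooled RNA, fewer cells of a type and less RNA per cell cannot be told apart.

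The regulatory sequence just upstream of the transcription start is shown for 4 genes that span the observed patterns: Apol7c, with the widest gap between fresh adipose and every other library; Samsn1, second of the 10 genes there by reads; Cd79a, a B cell gene; and Fscn1, the 1 gene that stayed abundant in culture. They are RefSeq promoter entries on GRCm38.p6, read 5′ to 3′ on the gene's strand and ending at the base before the gene, with motif matches in capitals. The windows are chr15:77533336-77533565 (minus strand) for Apol7c, chr16:75909267-75909516 (minus) for Samsn1, chr7:24897247-24897496 (plus) for Cd79a and chr5:142960105-142960354 (plus) for Fscn1.
Apol7c: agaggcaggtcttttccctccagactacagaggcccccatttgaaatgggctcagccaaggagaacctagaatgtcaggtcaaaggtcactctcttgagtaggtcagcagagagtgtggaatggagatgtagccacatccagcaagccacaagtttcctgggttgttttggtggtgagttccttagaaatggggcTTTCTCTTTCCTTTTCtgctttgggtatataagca
Samsn1: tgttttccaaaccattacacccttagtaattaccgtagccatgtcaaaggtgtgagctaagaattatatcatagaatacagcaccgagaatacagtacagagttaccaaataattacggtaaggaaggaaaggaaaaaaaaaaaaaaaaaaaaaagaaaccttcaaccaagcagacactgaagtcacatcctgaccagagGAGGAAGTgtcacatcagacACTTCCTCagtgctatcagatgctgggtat
Cd79a: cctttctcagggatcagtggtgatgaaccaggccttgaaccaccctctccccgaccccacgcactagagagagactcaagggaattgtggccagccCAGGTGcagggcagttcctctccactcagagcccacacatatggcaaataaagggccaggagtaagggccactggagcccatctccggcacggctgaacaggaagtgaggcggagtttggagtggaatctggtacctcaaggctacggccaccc
Fscn1: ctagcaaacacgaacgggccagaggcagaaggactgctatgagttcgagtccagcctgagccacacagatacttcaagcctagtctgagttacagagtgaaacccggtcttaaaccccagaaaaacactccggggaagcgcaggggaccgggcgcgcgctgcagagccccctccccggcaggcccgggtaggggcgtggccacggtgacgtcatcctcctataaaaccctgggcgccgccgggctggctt
The capitals in Apol7c are 2 overlapping matches to the interferon-stimulated response element (ISRE, searched as a pair of GAAA units with 2 bases between them), a pattern held by 2.98% of 32851 RefSeq promoter windows of 250 bases. Those in Samsn1 are 2 matches to a PU.1 pattern (GAGGAAGT), 1 on each strand, which 2.44% of the windows hold. The capitals in Cd79a are 1 match to an E-box (CAGGTG), held by 17.2% of the windows, and Fscn1 had no match to any of the 6 patterns searched on both strands. The other 3 patterns were the octamer (ATTTGCAT, 1.60% of windows), the EBF site (TCCC and GGGA with 2 bases between them, 0.779%) and the NF-kappaB consensus (9.55%). Of the 8 genes with an entry, Cd3e and Fcmr had 1 NF-kappaB match each, and an alternative start of Fcer2a had 2 E-box matches. Flt3 had none, and no gene had an octamer or EBF match. Ms4a1 and Blk had no entry. These matches are letters in a window of 198 to 250 bases and say nothing about which factor is bound. A window without a match to these fixed patterns may still hold a site with other letters.

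Cd3e encodes CD3 epsilon, a signalling chain of the T cell receptor, and lies at chr9:44998735-45009663 on the minus strand of GRCm38 with 8 exon blocks. It stood at 27.2 CPM in fresh adipose, 1.56 in fresh bowel, 0.155 in tdTomato-negative spheroid cells, 0.0487 in adipose neurospheres and 0.0385 in M1 neurospheres, and had 0 reads in tdTomato-positive spheroid cells and in M2 neurospheres. Fresh adipose and fresh bowel stood clear of each other and of every culture, while the counting intervals of the cultures overlapped from each to the next. The log2 ratio of fresh adipose to fresh bowel was 4.08 (95% counting interval 3.80 to 4.43). An antisense gene, Gm48719, overlaps 135 bases (3.31%) of the Cd3e exons, and the sources used here do not say whether counting used strand.

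The other chains of the receptor complex showed the same order of the 2 fresh libraries. Cd3d was at 36.1 against 1.13 CPM, Cd3g at 68.9 against 2.39 CPM and Cd247, which encodes the zeta chain, at 26.0 against 1.20 CPM. Lck, the kinase that phosphorylates these chains, was at 140 against 6.47 CPM. Per kilobase of exon, a rough allowance for gene length, Cd3e had 6.67 CPM per kb in fresh adipose, Cd3d 19.9, Cd3g 21.1 and Cd247 4.88, so Cd3e lay between its partners. Length was that of all annotated exons of a gene together, not of the transcripts present. Orders of genes by this measure, here and below, therefore depend on the annotation. In every culture Cd3d, Cd3g and Cd247 stayed at or below 0.325 CPM. Lck stood higher in most of them, at 3.51 CPM in tdTomato-negative and 1.70 CPM in tdTomato-positive spheroid cells. It was at 0.796 CPM in M2 and 0.763 CPM in adipose neurospheres, and did not exceed 0.270 CPM in M1 neurospheres.

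Among the 5 B cell genes of the 10, Cd79a was the most abundant per kilobase. It encodes Ig-alpha, a signalling chain of the B cell receptor, and lies at chr7:24897497-24901858 on the plus strand. Its levels were 70.6 CPM in fresh adipose, 2.44 in tdTomato-negative spheroid cells, 1.58 in fresh bowel, 0.308 in adipose neurospheres, 0.289 in M1 neurospheres and 0.248 in tdTomato-positive spheroid cells, with 0 reads in M2 neurospheres. Fresh adipose was the highest by a wide margin, and the tdTomato-negative spheroid cells exceeded fresh bowel beyond the counting intervals. The 3 levels between 0.248 and 0.308 CPM could not be told apart, and 8.31% of 50-base stretches of the Cd79a transcripts also occur in the gene model Gm32220. The log2 ratio of fresh adipose to fresh bowel was 5.44 (5.17 to 5.78).

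Ms4a1 encodes CD20, a surface protein of mature B cells, at chr19:11249679-11266149 on the minus strand. It was at 35.9 CPM in fresh adipose, 1.45 in tdTomato-negative spheroid cells, 0.468 in fresh bowel, 0.0578 in M1 neurospheres, 0.0325 in adipose neurospheres and 0.0306 in M2 neurospheres, with 0 reads in tdTomato-positive spheroid cells. As for Cd79a, the tdTomato-negative spheroid cells ranked next and fresh bowel after them, each apart from its neighbours. The log2 ratio of the 2 fresh libraries was 6.14 (5.70 to 6.85).

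Blk encodes a Src family kinase of B cells, at chr14:63372837-63417187 on the minus strand, and was the scarcest of the 10 genes. It reached 11.8 CPM in fresh adipose, 0.464 in tdTomato-negative spheroid cells, 0.162 in adipose neurospheres and 0.0306 in M2 neurospheres, and had 0 reads in fresh bowel, M1 neurospheres and tdTomato-positive spheroid cells. With 756 reads against 0, its level in fresh adipose was at least 224-fold higher than in fresh bowel, counted against a floor of 3 reads in that library. Among the 7 other Src family genes, Lck alone passed the size rule in this contrast, and it was higher. Fyn was at 244 against 142 CPM, Lyn at 61.4 against 72.8, Yes1 at 23.4 against 21.8, Fgr at 15.1 against 9.88 and Src at 12 against 5.13.

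Fcer2a and Fcmr encode receptors for antibody on B cells: CD23, which binds IgE, and the IgM receptor. Fcer2a, at chr8:3680280-3694174 on the minus strand, was at 49.4 CPM in fresh adipose, 0.173 in M1 neurospheres, 0.108 and 0.0618 in tdTomato-positive and tdTomato-negative spheroid cells and 0.0162 in adipose neurospheres, with 0 reads in fresh bowel and M2 neurospheres. Fcmr, at chr1:130865777-130880790 on the plus strand, was at 48.2 CPM in fresh adipose, 0.309 in tdTomato-negative spheroid cells, 0.116 in M1 neurospheres and 0.0693 in fresh bowel, with 0 reads in the 3 other cultures. Outside fresh adipose neither gene exceeded 20 reads in a library, and their order there is mostly within the counting intervals. Fcer2a was at least 937-fold higher in fresh adipose than in fresh bowel, and the log2 ratio for Fcmr, from 3087 against 4 reads, was 8.87 (8.06 to 11.30). The other antibody receptor genes listed with these 2 did not share the pattern. Fcgr2b stood at 476 against 188 CPM, Fcgrt at 375 against 404 and Fcer1g at 120 against 181. Pigr was at 0.687 against 17.5 CPM, and Fcamr had 1 read in fresh adipose and 0 in fresh bowel.

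The B cell receptor partners Cr2 and Cd79b were also higher in fresh adipose. Cr2, which encodes complement receptor CD21, was at 17.8 against 0.0867 CPM, and Cd79b at 50.7 against 9.47 CPM. Ighm, the heavy chain of IgM, was at 332 against 135 CPM, a log2 ratio of 1.28 (1.24 to 1.32) that did not pass the size rule, and fresh bowel held immunoglobulin reads while Cd79a, Ms4a1 and Blk were low or undetected there. Cd81, which is expressed far beyond B cells, was at 1383 against 1438 CPM. Counting the partners of both receptors and the ligand gene Flt3l, 7 of 8 were higher by the size rule, with Cd81 the exception. In the family of Ms4a1, 11 of the 14 other genes were measured and 2 were higher and 2 lower. Over all 15585 genes measured in this contrast, 7.09% were higher and 11.4% lower. Both lists were chosen with earlier results of these data known, so nothing is read from these counts. Ms4a4b, found in T cells, was at 101 against 4.21 CPM, and Ms4a3 at 1.11 CPM against 0 reads. Ms4a7, a macrophage gene, was lower with 18.5 against 102 CPM, and Ms4a10 had 0 reads against 1.23 CPM.

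**Figure D1:**
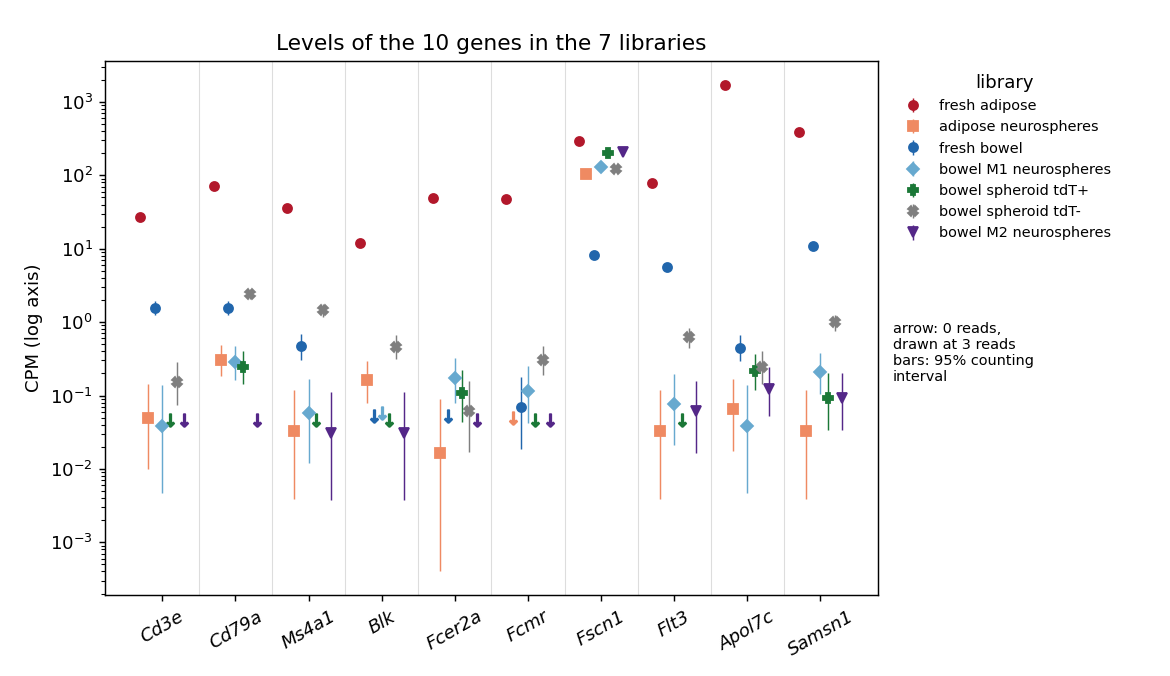
CPM of each of the 10 genes in the 7 libraries on a log axis. Symbols are single libraries, bars are 95% exact Poisson counting intervals, and arrows mark 0 reads, drawn at the level of 3 reads. Fresh adipose is the highest library for all 10 genes, and Fscn1 is the only one above 100 CPM in all 5 cultured libraries.

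Flt3 encodes the receptor tyrosine kinase that dendritic cells and their precursors need to respond to FLT3 ligand, and lies at chr5:147330741-147400489 on the minus strand. It was at 77.9 CPM in fresh adipose, 5.70 in fresh bowel, 0.618 in tdTomato-negative spheroid cells, 0.0771 in M1 neurospheres, 0.0613 in M2 neurospheres and 0.0325 in adipose neurospheres, with 0 reads in tdTomato-positive spheroid cells. Each of the first 3 libraries was separate from the next, and the 4 lowest were not. Its log2 ratio between the fresh libraries, 3.75 (3.59 to 3.92), was the smallest of the 10. Flt3l, the ligand gene, was at 23.8 against 5.04 CPM. None of the other 4 receptors of its class passed the size rule: Csf1r, of macrophages, was at 133 against 399 CPM, Pdgfra at 23.5 against 69.3, Pdgfrb at 41.5 against 17.0 and Kit at 6.73 against 19.6.

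Apol7c, an apolipoprotein L gene known from activated dendritic cells, lies at chr15:77524852-77533335 on the minus strand. It was at 1688 CPM in fresh adipose, where it ranked 48th of all genes by reads, with no account of length, and at 0.451 in fresh bowel, 0.247 and 0.217 in tdTomato-negative and tdTomato-positive spheroid cells, 0.123 in M2, 0.0649 in adipose and 0.0385 in M1 neurospheres. That is 108081 reads in 1 library and 2 to 26 reads in each of the others, whose order is within the counting intervals from each to the next. The log2 ratio to fresh bowel was 11.75 (11.30 to 12.47). Of its relatives, Apol6 was at 93.2 against 1.42 CPM and Apol7e at 5.50 against 0.520 CPM, both higher, Apol10a was lower at 0.109 against 1.23 CPM, and 5 others of 8 measured passed in neither direction, among them Apol10b at 28.2 against 7.80 CPM and Apol7a at 0.750 against 2.84 CPM. A share of 25.6% of 50-base stretches of Apol7c transcripts also occurs elsewhere in the annotation, in Gm8221, Apol7a, Apol7e and Apol7b. How the counting divided such reads is not known, so the low values of Apol7a, Apol7b (0.843 CPM) and Apol7e in fresh adipose are uncertain beside so abundant a neighbour.

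Samsn1 encodes an adaptor with SH3 and SAM domains of B cells and other leukocytes, at chr16:75858794-75909266 on the minus strand. It was at 390 CPM in fresh adipose (24939 reads), 10.8 in fresh bowel, 0.990 in tdTomato-negative spheroid cells, 0.212 in M1 neurospheres, 0.0929 in tdTomato-positive spheroid cells, 0.0919 in M2 neurospheres and 0.0325 in adipose neurospheres. Each of the first 3 libraries was apart from the next, in the same order as for Flt3. The log2 ratio of the fresh libraries was 5.15 (5.04 to 5.28). Sash3, its lymphocyte relative, was at 51.9 against 21.0 CPM and the widely expressed Sash1 at 13.7 against 11.5 CPM, neither past the size rule.

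Fscn1 encodes fascin, which bundles actin in the projections of mature dendritic cells and also in growth cones and migrating cells, and lies at chr5:142960355-142973189 on the plus strand. It was at 291 CPM in fresh adipose, 206 in M2 neurospheres, 203 in tdTomato-positive spheroid cells, 130 in M1 neurospheres, 124 in tdTomato-negative spheroid cells, 103 in adipose neurospheres and 8.20 in fresh bowel. M2 neurospheres and tdTomato-positive spheroid cells did not differ beyond their counting intervals, and every other neighbour in that order did. Only 27.3% of its summed CPM lay in fresh adipose, against 92.3% (Flt3) to 99.9% (Apol7c) for the 9 others. Its level thus did not follow the label that names these genes lymphocyte and dendritic genes of fresh adipose. The other fascins, Fscn2 and Fscn3, stayed at or below 0.364 CPM in all 7 libraries.

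By the size rule all 10 genes were higher in fresh adipose than in fresh bowel, a contrast in which 7.09% of 15585 genes were called higher and 11.4% lower. That contrast helped to choose them, so nothing is read from the count. Per kilobase of exon, their levels in fresh adipose ran from 819 CPM per kb for Apol7c through 96.5 for Fscn1, 78.9 for Samsn1, 48.5 for Cd79a, 27.8 for Fcmr, 16.0 for Fcer2a, 12.6 for Flt3, 6.67 for Cd3e and 5.80 for Ms4a1 to 4.38 for Blk.

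The leukocyte marker Ptprc was itself 1.68 higher on the log2 scale in fresh adipose than in fresh bowel (1.64 to 1.73). Expressed per 100 CPM of Ptprc in the same library, the 8 genes with reads in fresh bowel were still higher in fresh adipose, by 4.20-fold for Flt3, 5.36-fold for Cd3e, 10.9-fold for Fscn1, 11.1-fold for Samsn1, 13.8-fold for Cd79a, 23.6-fold for Ms4a1, 214-fold for Fcmr and 1152-fold for Apol7c. On the same basis Cd74, the invariant chain of MHC class II, was 0.125-fold and Csf1r 0.102-fold of the fresh bowel value. The levels that chose the 10 genes enter these ratios, so they are a description too.

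**Figure D2:**
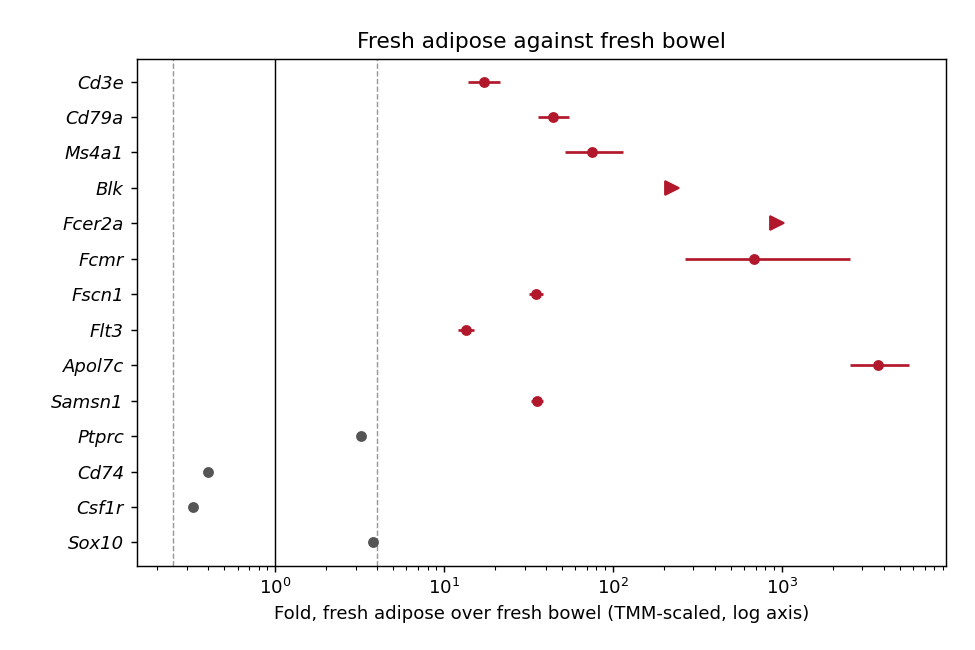
Fold of fresh adipose over fresh bowel on a log axis, from TMM-scaled reads without a prior count, for the 10 genes (red) and for Ptprc, Cd74, Csf1r and Sox10 (grey). Bars are 95% counting intervals, triangles are lower bounds for Blk and Fcer2a, which had 0 reads in fresh bowel, and dashed lines mark 4-fold either way. All 10 genes lie to the right of the 4-fold line, whereas Cd74 and Csf1r lie to the left of equality.

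Lists of cell type markers place the 10 genes in context, and counts below leave the 10 genes out of their lists. The lists too were chosen with earlier results of these data known. Their counts, here and below, are therefore a description and no independent support. In fresh adipose against fresh bowel, 18 of 19 measured T cell genes were higher and none lower (median log2 ratio 4.39, against 0.09 over all genes). Of 18 B cell genes 12 were higher and none lower (median 2.67). Mature dendritic cell genes had 16 of 21 measured higher and none lower (median 3.88). Genes below 1 CPM in fresh bowel could not be called lower. The whole T cell list had 20 genes at 1 CPM or more in fresh adipose and 13 in fresh bowel. For the B cell list these were 23 and 12, and for the mature dendritic cell list 24 and 19. Tmem123 was at 3241 against 217 CPM, H2-M2, a nonclassical MHC gene, at 1623 CPM against 0 reads, and Ccr7, the homing receptor, at 1473 against 1.39 CPM. The chemokine gene Ccl22 stood at 1070 against 5.62 CPM.

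The general dendritic cell list, made of lineage genes and MHC class II genes, did not show this. Of its 15 measured genes 2 were higher and 1 lower, with a median log2 ratio of 0.24. The higher genes were transcription factors of classical dendritic cells, Zbtb46 at 58.9 against 10.1 CPM and Batf3 at 45.3 against 8.42 CPM. The lower gene was Cd209a at 13.9 against 68.8 CPM, while Xcr1 at 7.34 against 12.5 CPM and Cd74 at 2240 against 5501 CPM were not called. The macrophage list had none of 13 genes higher and 1 lower, Cx3cr1 (median log2 ratio -1.59), with Adgre1 at 60.6 against 209 CPM and Lyz2 at 1163 against 2843 CPM.

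Summed levels were 839 CPM in fresh adipose against 58.8 CPM in fresh bowel for the whole T cell list, 1078 against 246 CPM for B cells, 13942 against 1045 CPM for mature dendritic cells, 5024 against 12522 CPM for dendritic cells and 1976 against 5205 CPM for macrophages. Unlike the counts, all sums are of whole lists. The sums of the T cell, B cell and both dendritic cell lists thus include levels that helped to choose the 10 genes. Sums of the NK cell list were 152 against 23.1 CPM (7 of 10 genes higher) and of the neutrophil list 195 against 17.0 CPM (7 of 9 measured genes higher, with Ly6g at 0 reads in all libraries). For lymph node stroma and vessels the sums were 240 against 217 CPM, with 3 of 10 measured genes higher (Cxcl13, Ltb and Tnfsf11) and 3 lower (Pdpn, Flt4 and Chst4). Of that list's defining genes, Cxcl13, the B cell attractant of follicles, was at 72.0 against 0.468 CPM, whereas Ccl19 was at 0.656 against 0.243 CPM, Ccl21a at 0.172 against 0.347 CPM, and Glycam1 at 0.141 CPM against 0 reads. The part of these other cell types in the levels of the 10 genes was not tested. Crest and glial genes had sums of 8410 against 1556 CPM, with 5 of 14 genes higher, among them the myelin gene Mbp, and 1 lower, Gfap.

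**Figure D3:**
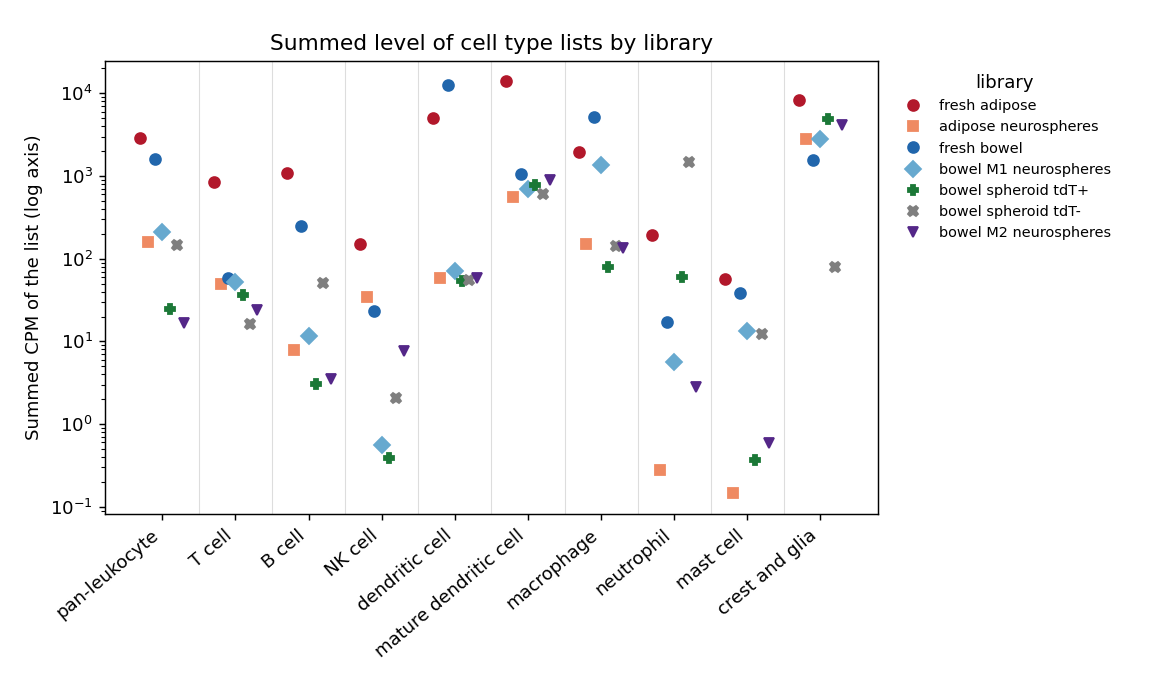
Summed CPM of 10 lists of cell type markers in each of the 7 libraries on a log axis, 1 symbol per library. The lists are whole, with the genes described here left in. Fresh adipose is highest for the pan-leukocyte, T cell, B cell, NK cell, mature dendritic cell, mast cell, and crest and glia lists. Fresh bowel is highest for the dendritic cell and macrophage lists, and tdTomato-negative spheroid cells for the neutrophil list.

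Adipose neurospheres against fresh adipose had 9 of the 10 genes lower and none higher, where 20.8% of 14773 genes were lower and 5.71% higher, and this contrast too had helped to choose them. The 9 genes passed the 1 CPM filter through fresh adipose alone, so none of them could be called higher. The log2 ratios were -14.21 (-16.69 to -13.46) for Apol7c from 4 against 108081 reads, -12.67 (-16.74 to -11.84) for Samsn1 from 2 reads and -10.35 (-14.42 to -9.52) for Flt3 from 2 reads. Among B cell genes they were -7.84 (-8.72 to -7.34) for Cd79a, -9.23 (-13.30 to -8.40) for Ms4a1, -6.06 (-7.40 to -5.44) for Blk and -10.10 (-17.02 to -9.24) for Fcer2a from 1 read. Fcmr, with 0 reads, was at least 1096-fold lower, and Cd3e with 3 reads had a log2 ratio of -8.52 (-11.55 to -7.72). Fscn1 differed by -1.64 (-1.68 to -1.60), short of 4-fold, and with a 2-fold rule all 10 genes were lower.

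Genes of the same cell types that are not among the 10 were lower as well. Of the B cell list 18 of 18 genes were lower (median log2 ratio -8.67, or -8.27 with the 9 genes at 0 reads set at their bounds), of the T cell list 18 of 19 (median -8.77), of the mature dendritic cell list 18 of 21 (median -7.22) and of the macrophage list 12 of 13, with Mertk higher. Most of these B and T cell genes passed the 1 CPM filter through fresh adipose alone and could not be called higher. The whole B cell list had 23 genes at that level in fresh adipose and 1 in adipose neurospheres, and the T cell list 20 and 3. For the mature dendritic cell list these were 24 and 10, and for the macrophage list 13 and 9. Cd79b and Pax5 had 0 reads in adipose neurospheres, and so did Cd3g. The 14 crest and glial genes had 6 members lower and 2 higher, a median of -0.92 on the log2 scale and a sum of 2817 against 8410 CPM, with Sox10 at 632 against 377 CPM. Tmem123 of the mature dendritic cell list was lower than in fresh adipose and still at 166 CPM, and it stood at 174 to 439 CPM in the bowel cultures.

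Bowel cultures started from lower levels, so fewer of the 10 genes were measured. In M1 neurospheres against fresh bowel 5 were measured, of which 4 were lower and Fscn1 higher, where 16.3% of all genes were lower and 6.58% higher. The 4 lower genes passed the 1 CPM filter through fresh bowel alone and could not be called higher, so nothing is read from the count. The log2 ratios were -4.75 (-8.87 to -3.90) for Cd3e, -2.74 (-3.80 to -2.11) for Cd79a, -6.04 (-8.55 to -5.30) for Flt3 and -5.87 (-7.14 to -5.28) for Samsn1. In the macrophage list 11 of 13 genes were lower in M1 neurospheres and none higher (median log2 ratio -5.32). Its sum was 1368 against 5205 CPM, of which Lyz2 made up 1213 CPM in M1 neurospheres, while the 9 genes other than Fscn1 were at or below 0.289 CPM in it.

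TdTomato-positive spheroid cells and M2 neurospheres also had 5 genes measured, with Cd3e, Cd79a, Flt3 and Samsn1 lower and Fscn1 higher, and all 3 contrasts share fresh bowel as their control library. Here too the genes that were lower passed the 1 CPM filter through fresh bowel alone and could not be called higher. In tdTomato-positive spheroid cells Flt3 was at least 139-fold and Cd3e at least 37.9-fold lower, and the log2 ratios were -2.68 (-3.71 to -2.07) for Cd79a and -6.58 (-8.48 to -5.90) for Samsn1, where 20.4% of genes were lower and 6.57% higher. In M2 neurospheres Cd3e was at least 41.4-fold and Cd79a at least 41.9-fold lower, and the log2 ratios were -6.17 (-8.71 to -5.46) for Flt3 and -6.69 (-8.61 to -6.03) for Samsn1, where 21.0% were lower and 5.89% higher. Fscn1 was higher than in fresh bowel by 3.52 (3.39 to 3.67) in M1 neurospheres, 4.45 (4.33 to 4.59) in tdTomato-positive spheroid cells and 4.36 (4.23 to 4.50) in M2 neurospheres on the log2 scale. It thus passed the size rule upward in the 3 contrasts with fresh bowel, whereas its log2 ratio of -1.64 in culture from fat did not pass. Between the 2 cultures of the same course, adipose and M2 neurospheres, Fscn1 was the only one of the 10 genes measured and differed by -0.87 (-0.92 to -0.83), short of the size rule, by which 5.33% of genes were higher in adipose neurospheres and 8.71% lower.

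The sort of bowel spheroids compared tdTomato-positive with tdTomato-negative cells from the same kind of culture and is a description too, since the levels in all 7 libraries were known when the genes were chosen. The reporter sort was visible in Sox10, at 900 CPM in the positive and 5.23 CPM in the negative cells. Of the 10 genes 3 were measured, of which Cd79a and Ms4a1 were lower in tdTomato-positive cells and none was higher, where 12.5% of 13951 genes were lower and 6.64% higher. Both Cd79a and Ms4a1 passed the 1 CPM filter through tdTomato-negative cells alone, so they could not be called higher. Cd79a had 16 against 158 reads, a log2 ratio of -3.38 (-4.39 to -2.80), and Ms4a1 had 0 against 94 reads, at least 37.0-fold lower. Fscn1, at 203 against 124 CPM, differed by 0.48 (0.44 to 0.52) and was not called.

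The 7 genes below 1 CPM in both fractions were not tested by the rule, and their reads, positive fraction first, were 0 and 30 for Blk, 0 and 20 for Fcmr, 0 and 40 for Flt3, 6 and 64 for Samsn1, 0 and 10 for Cd3e, 14 and 16 for Apol7c and 7 and 4 for Fcer2a. Blk, Fcmr, Flt3, Samsn1 and Cd3e therefore had most or all of their few reads in tdTomato-negative cells, and Apol7c and Fcer2a were split within counting error. Of the B cell genes outside the 10, 7 of 8 measured were lower in tdTomato-positive cells (median log2 ratio -4.77), among them Ighm at 0.310 against 27.1 CPM and Cd79b at 0.0310 against 1.62 CPM. No gene of the B cell list reached 1 CPM in tdTomato-positive cells. Those measured therefore passed the filter through tdTomato-negative cells alone and could not be called higher. Of the T cell genes outside the 10, 4 were measured, none was lower and Bcl11b was higher at 2.31 against 0.0928 CPM. Ccr7 was at 1.70 against 43.2 CPM and Ccl22 at 0.124 against 3.60 CPM, while Ptprc stood at 1.64 against 3.0 CPM. The neutrophil list summed to 59.5 against 1480 CPM and the mast cell list to 0.371 against 12.4 CPM, and their part in the difference was not tested. The neutrophil sum in tdTomato-negative cells came mostly from genes other than its 3 defining markers. Of those markers S100a9 and Ly6g had 0 reads there and the highest stood at 10.9 CPM, and 4 of the list's 12 genes reached 1 CPM.

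**Figure D4:**
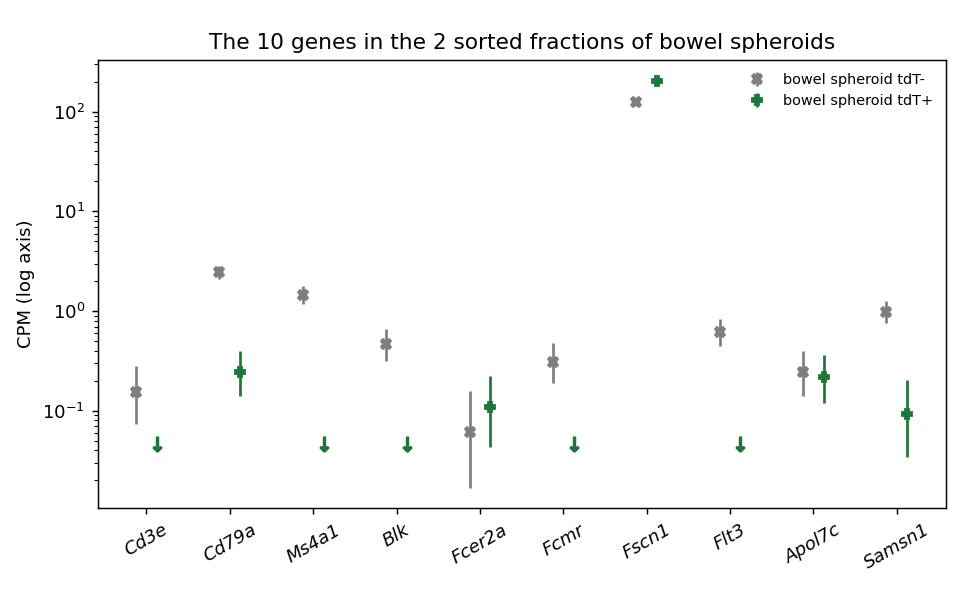
CPM of the 10 genes in tdTomato-negative (grey) and tdTomato-positive (green) cells of bowel spheroids on a log axis. Bars are 95% exact Poisson counting intervals and arrows mark 0 reads, drawn at the level of 3 reads. Cd79a, Ms4a1, Blk, Fcmr, Flt3, Samsn1 and Cd3e are higher in tdTomato-negative cells, Fcer2a and Apol7c overlap, and Fscn1 is above 100 CPM in both.

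Profiles over the 7 libraries were compared with those of 12525 genes that reached 10 CPM somewhere, as Pearson's r of log2(CPM + 0.1). These values are descriptions over 7 points, most of which lie near 0 CPM with fresh adipose far above, so r without fresh adipose is given as well. Nearest to Cd3e were Cd96 (r = 0.997), Cd5 (0.997) and Zc3h12d (0.996), and without fresh adipose these were 0.991, 0.987 and 0.982. Among the nearest to Ms4a1 were Ly6d (0.998) and the immunoglobulin light chain gene Iglc2 (0.993), with 0.991 and 0.972 without it. Samsn1 and Flt3 were among each other's 3 nearest genes (r = 0.995, and 0.989 without fresh adipose), and the nearest sets also held Epsti1 (0.999) for Samsn1, and Slamf6 (0.996) and Abi3bp (0.995) for Flt3.

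For Apol7c, Fcer2a and Blk, r was lower without fresh adipose. Apol7c was nearest to Il9r (0.990), the Langerhans cell gene Cd207 (0.990) and S100a9 (0.989), which fell to 0.691, 0.739 and 0.514 without fresh adipose. Fcer2a was nearest to H2-M2 (0.990), Slc50a1 (0.987) and Tnfrsf4 (0.982), which fell to 0.680, 0.685 and 0.312. Blk was nearest to Ccr6 (0.972), Scin (0.968) and Mpo (0.960), which fell to 0.851, 0.740 and 0.710. Cd79a was nearest to Cd40 (0.991), Icos (0.985) and Nfkbie (0.985), with 0.984, 0.952 and 0.951 without fresh adipose. Fcmr was nearest to Mxd1 (0.993), Slco5a1 (0.993) and Zfp872 (0.986), with 0.864, 0.997 and 0.878 without it. Fscn1 was nearest to Mtf1 (0.981), Pramel12 (0.979) and Ttyh2 (0.977), with 0.980, 0.987 and 0.977 without fresh adipose. Their levels in fresh adipose, 39.4, 57.3 and 100.04 CPM, were close to their highest elsewhere, 35.6, 61.5 and 114 CPM. The r of Fscn1 with the 9 others ran from -0.18 (Flt3) to 0.43 (Fcer2a), and without fresh adipose from -0.98 (Cd3e) to 0.44 (Fcer2a), with -0.91 for Flt3 and -0.90 for Samsn1.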

How the data were processed

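RNA of the 7 libraries was made into cDNA with SMART-Seq v4 and sequenced from Nextera XT libraries, per the labels' protocols. The submitters' processing notes name bcl2fastq 2.17, HISAT, featureCounts and the mm10 build. Versions of HISAT and featureCounts and the use of strand were not given in those sources. The deposited values are CPM per Entrez gene, made by the authors, and every value was a whole multiple of 1 read (100% within 0.05 read), so whole read counts were recovered from them. Symbols for 25275 of 27179 IDs came from the RefSeq GRCm38.p6 table, and exon lengths and positions from GENCODE annotation of GRCm38.

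Ratios used TMM factors from edgeR 4.0.16 over 7 libraries, a prior of 2 reads and a 95% exact conditional binomial interval of the reads without the prior; levels have exact Poisson intervals. A gene was called at 4-fold or more with the interval wholly beyond 2-fold, if at 1 CPM or more in either library. With 1 library per group no test across samples was possible. Alternatives were a filter at 5 CPM or none, size factors of DESeq2 1.42.0 or plain totals, a prior of 0.5, and 2-fold or 8-fold rules.

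The members and lists were chosen with earlier results of these data known. Named were the 10 genes, the 3 most alike to each, the family and partner lists, and from each cell type list the defining markers and the 3 highest in fresh adipose. Batf3, Cd209a, Cx3cr1, Tnfsf11, Pdpn, Flt4, Chst4, Gfap, Mertk and Bcl11b were named after their values were seen. Some genes that this rule names are not reported here.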

Additional observations from a re-analysis of the deposited data

Results flagged for a closer look

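The log2 ratios of Fscn1 in culture from the 2 tissues had opposite signs, and only that from bowel passed the 4-fold size rule. Adipose neurospheres against fresh adipose had a log2 ratio of -1.64 (-1.68 to -1.60), and bowel M2 neurospheres against fresh bowel, cultured along the same course, had 4.36 (4.23 to 4.50). The levels were 291 and 103 CPM in fat and 8.20 and 206 CPM in bowel, fresh cells first. The difference between the tissues was not tested, since each group had 1 library. Blk had 2 against 0 reads in the bowel contrast, too few for a ratio. Both fresh libraries held leukocyte reads, with Ptprc at 278 CPM in adipose and 85.6 CPM in bowel, and its part in the Fscn1 levels was not tested.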

How the results depend on the processing

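All 10 genes remained higher in fresh adipose than in fresh bowel under each of the 7 alternatives run. The count of the 10 genes lower in tdTomato-positive than in tdTomato-negative spheroid cells was 2, rose to 7 with no filter and was 0 with a 5 CPM filter, which leaves Fscn1 alone measured. With the 5 CPM filter the counts lower than in fresh bowel fell from 4 to 2 in M1 neurospheres, from 4 to 2 in tdTomato-positive spheroid cells and from 4 to 2 in M2 neurospheres, because fewer genes were measured. With no filter 1 gene, Cd79a with 19 reads against 0, was higher in adipose than in M2 neurospheres, against 0 genes. With log2(CPM + 1), 15 of the 30 nearest genes were shared with those named. M2 neurospheres against fresh bowel was a comparison added after seeing the data. Of the 39 single log2 ratios, 33 stayed within their intervals with scaling by totals and 6, all of Fscn1, moved; none reversed. Scaling by totals shifted the median of all genes by 0.02 between the fresh libraries, 0.15 for adipose culture, 0.46 for M1, 0.17 for tdTomato-positive spheroid cells and 0.29 for M2 against fresh bowel, 0.24 for the spheroid sort and -0.12 for adipose against M2 neurospheres. For M1 it changed the calls over all genes from 1015 higher and 2521 lower to 1711 and 2116. With no filter 2045 genes were higher in fresh adipose than in fresh bowel against 1105, with the 2-fold rule 2669, and with the 8-fold rule 588. No paired analysis was possible because each group had 1 library. Depth put the floor for a count of 0 at 0.0459 to 0.0578 CPM, and a level at that floor was not apart from 0 reads by the counting intervals. For Cd3e, 3 reads in adipose neurospheres had an interval of 0.0100 to 0.142 CPM. Its 0 reads in M2 neurospheres allowed up to 0.0565 CPM.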
